A study of Mus musculus with 12 samples.

Results

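Deinoxanthin (DEIX), an orange carotenoid known from the radiation-resistant bacterium Deinococcus radiodurans, was given to irradiated mice, and gene expression in their marrow was compared with that of mice that were irradiated only. The comparison sets the 3 whole bone marrow libraries of the TBI+DEIX group against the 3 of the TBI group, 6 of the 12 libraries of the study. Both groups are B6 mice that received total body irradiation (TBI) with 5 Gy of γ-rays at 0.66 Gy/min and whose marrow was taken 14 days later. The TBI mice were gavaged with 100 µL of olive oil as vehicle. The TBI+DEIX mice took DEIX by mouth at 25 mg/kg of body weight on each of the 14 days after irradiation. The other groups, with 3 libraries each, are unirradiated control mice and unirradiated mice given DEIX, likewise at 25 mg/kg and for 14 days. A vehicle is named for the TBI mice only, so in the comparison of TBI+DEIX with TBI the DEIX cannot be told apart from the presence or absence of olive oil. For no group do the labels give age, sex or the number of mice behind a library, so p-values measure only the spread between these libraries. The comparison addresses whether DEIX changes gene expression in irradiated marrow. It was made over 21853 protein-coding genes, of which 10994 reached 1 FPKM (sequenced fragments scaled to transcript length and to library size) in at least 3 of the 12 libraries and were tested.

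As background, bone marrow makes red cells, neutrophils, monocytes, platelets and lymphocytes from a small pool of dividing progenitors, and a sublethal dose of γ-rays kills much of that dividing pool. In the weeks after irradiation the surviving progenitors refill the lineages, each at its own pace. Red cell precursors switch on globins, haem enzymes and membrane skeleton proteins under the factors GATA1 and KLF1. Neutrophils pass through a dividing stage, in which granule proteins are made in a fixed order, and end as non-dividing cells with chemotactic receptors and stefins. In bulk marrow, fewer cells of a type and less RNA per cell cannot be told apart.

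The table holds FPKM values without read counts, so the sequencing depth is unknown. The FPKM of a library summed to between 493683 in TBI+DEIX replicate 1 and 848843 in TBI+DEIX replicate 3, and 10359 to 10832 genes reached 1 FPKM. Defining markers of erythroid, neutrophil, promyelocyte, monocyte, B, T and NK, megakaryocyte and progenitor cells were above 0 in every library. Of 4 muscle markers, Acta1 and Ckm stayed at or below 0.392 FPKM and Tnnt3 at or below 1.32 FPKM, its value in TBI+DEIX replicate 1, whereas Mylpf was at 4.85 to 6.67 FPKM in TBI and 2.42 to 3.84 FPKM in TBI+DEIX, without overlap, and 3.97 to 5.63 FPKM in controls. The part of muscle RNA in the results was not tested. The liver marker Alb stayed at or below 0.0104 FPKM. The calprotectin genes S100a8 and S100a9 and the neutrophil granule gene Ngp have 0 in part of the libraries and very high values in the rest. Ngp, for example, is listed at 0, 0 and 17004 FPKM in the TBI replicates and at 16687, 0 and 28553 FPKM in the TBI+DEIX replicates, so no mean is given for these 3 genes.

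TBI+DEIX replicate 1 stood apart from every other library. It was the highest of the 12 libraries for 2812 genes and the lowest for 2992, together 52.8% of the genes tested, against 4.0% to 26.9% for each of the others. Its Pearson correlation with the other 11 libraries, across the log values of the tested genes, lay between 0.887 and 0.945, and TBI+DEIX replicates 2 and 3 correlated at 0.981 with each other. Within the TBI+DEIX group the SD between libraries, pooled over genes, was 0.42 on the log2 scale and 0.20 without this library, beside 0.23 in the TBI group. Transcript length moved with it. Its median difference from the TBI mean was -0.36 (log2) over the 2201 genes with the shortest transcripts and 0.17 over the 2199 with the longest, while TBI+DEIX replicates 2 and 3 stayed between -0.03 and 0.06 in all 5 length bins. The part of this in the results was not tested. Results are therefore given with all 3 TBI+DEIX libraries and without replicate 1, and the contents of that library are described apart at the end.

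**Figure D1:**
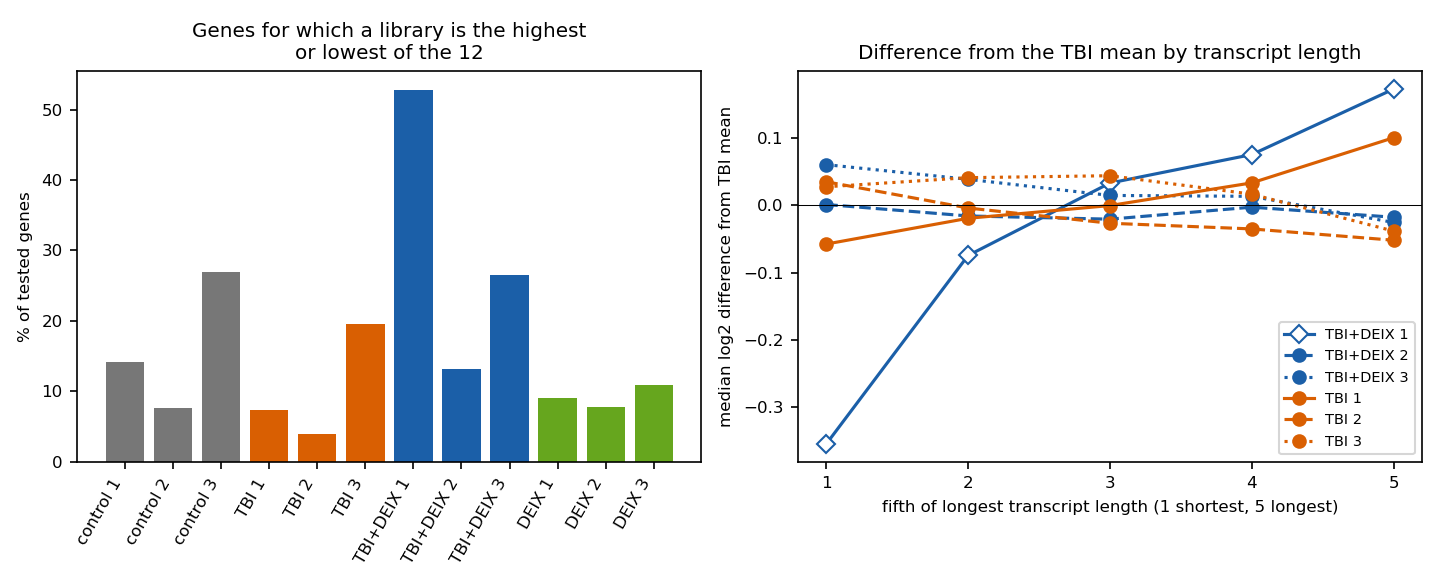
Left, percentage of the 10994 tested genes for which each library (coloured by group) is the highest or the lowest of the 12. Right, median difference in log2(FPKM + 1) from the TBI mean for each TBI and TBI+DEIX library (lines), over 5 bins of the tested genes ordered by the length of their longest transcript. TBI+DEIX replicate 1 is extreme for 52.8% of genes and runs from -0.36 to 0.17 across the bins.

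With all 12 libraries in one limma model on log2(FPKM + 1), 891 genes differed between TBI+DEIX and TBI at a Benjamini-Hochberg adjusted p under 0.05, 8.1% of those tested. Of these, 516 were higher (4.69% of those tested) and 375 lower (3.41%) in TBI+DEIX, the shares beside which every list count below from this fit stands, and 154 differed at least 2-fold. Without TBI+DEIX replicate 1 the count was 2836, 25.8% of genes, 1782 of them higher (16.2%) and 1054 lower (9.59%), and 883 of the 891 genes (8.03% of those tested) were called again in the same direction and none in the opposite one. The 3 TBI and 3 TBI+DEIX values did not overlap for 27.2% of genes, and for 58.1% when only TBI+DEIX replicates 2 and 3 were set against TBI. The 891 rest on a spread shared with the control and DEIX libraries. Fitted on the 6 libraries alone, 0 genes passed adjustment by limma and 2015 (18.3%) had an unadjusted p under 0.05, against 1836 adjusted calls (16.7%) in the 5 libraries left when TBI+DEIX replicate 1 was also dropped. Single libraries weighed heavily on the count. It was 5 when TBI replicate 3 was dropped, 51 for TBI+DEIX replicate 3, 345 for TBI replicate 2, and 461, 357 and 543 for control replicates 1, 2 and 3. Rescaling the FPKM of each library to a common sum (TPM) left 157 calls of which 34.4% were higher, against 57.9% before, and moved the median of all tested genes from 0.00 to -0.12 (log2). That common sum contains S100a8, S100a9 and Ngp, which made up 0% to 26.4% of a library, and with these 3 genes left out TPM gave 488 calls, 29.9% of them higher. When TBI+DEIX replicate 1 was dropped as well there were 3971 calls among the 10994 tested genes, 14.5% of them higher. Most were thus falls, and list counts from that fit below stand beside these numbers. The median of all tested genes was -0.25 there, so the balance of rises and falls in the fit without TBI+DEIX replicate 1 turns with the scaling. Among the gene lists described below, fits without TBI replicate 3 kept only the calls of Socs3 and Fbxl5. An exact two-sided permutation test of a single gene on 3 against 3 libraries cannot go below 0.1.

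**Figure D2:**
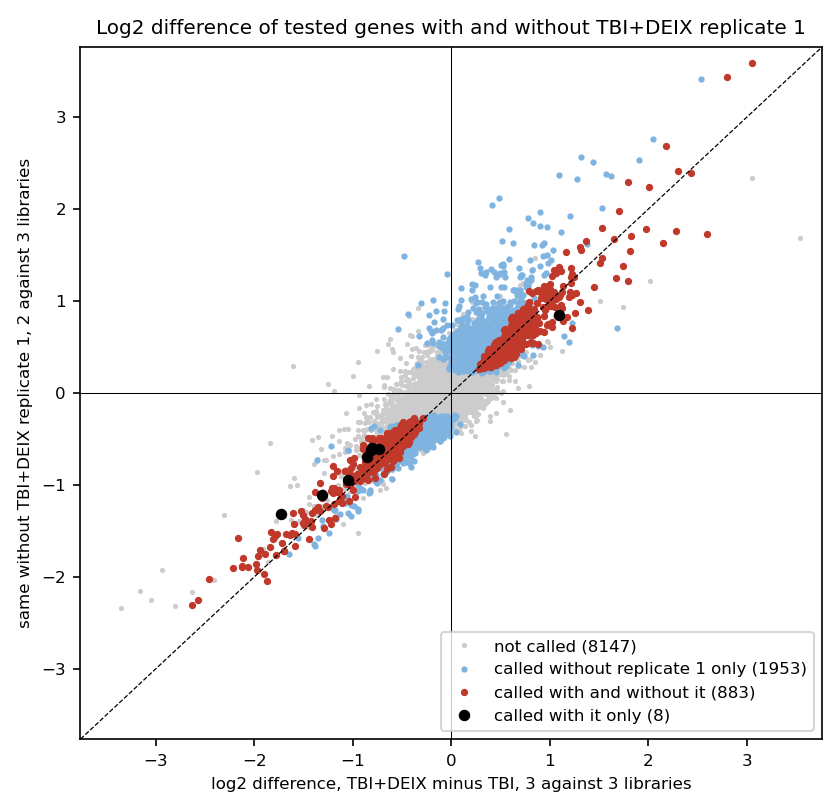
Log2 difference of the tested genes between TBI+DEIX and TBI with all libraries (horizontal) and without TBI+DEIX replicate 1 (vertical), leaving out S100a8, S100a9 and Ngp. Red points are the 883 genes called in both fits, which all lie in the lower left or upper right, blue points the 1953 called only without replicate 1 and black points the 8 called only with it.

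The 5 genes that were called without TBI replicate 3 too, named here because of that result, were Socs3, Fbxl5, Klhl2, Iqsec1 and Palld, all higher in TBI+DEIX and each at an adjusted p of 0.0423 in that limma fit. Socs3, the feedback inhibitor of JAK-STAT signalling that cytokines of the IL-6 and G-CSF type induce, was at 5.67, 4.75 and 4.02 FPKM in TBI replicates 1 to 3 and at 28.8, 18.1 and 19.8 FPKM in TBI+DEIX replicates 1 to 3. The lowest TBI+DEIX library was thus more than 3 times the highest TBI library. The log2 difference was 1.98 ± 0.22 (SE, adjusted p = 0.00411), and 1.79 without TBI+DEIX replicate 1 (adjusted p = 0.00212). Fbxl5, the iron-sensing ubiquitin ligase subunit that degrades iron regulatory proteins, was at 88.5, 68.6 and 63.1 FPKM in TBI and 168, 174 and 178 FPKM in TBI+DEIX, a difference of 1.24 ± 0.13 (adjusted p = 0.00411). Its TBI+DEIX values were close to each other, with replicate 1 among them. Palld, which encodes the actin-bundling protein palladin, was near 1 FPKM in each TBI library (1.03, 0.963 and 0.984) and at 3.34, 2.71 and 3.44 FPKM in TBI+DEIX. Iqsec1, an exchange factor of ARF GTPases, was at 22.2 to 28.7 FPKM in TBI and 47.9 to 55.7 FPKM in TBI+DEIX, and Klhl2, a substrate adaptor of cullin 3 ligases, was at 11.8 to 17.1 FPKM in TBI and 30.9 to 35 FPKM in TBI+DEIX. In unirradiated mice given DEIX, Socs3 was at 12.9 to 22.3 FPKM and Fbxl5 at 137 to 165 FPKM, against 4.65 to 6.49 and 67.8 to 71.3 FPKM in controls. Both genes were thus higher with DEIX in irradiated and in unirradiated mice, with no overlap in either.

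Red cell genes were among the largest falls. The red cell membrane and skeleton list holds 20 tested genes, and all 20 were lower in TBI+DEIX, 11 of them called, with a median log2 difference of -1.61, against 0.00 over all tested genes. The 2 groups did not overlap for 19 of the 20, where 12.7% of all tested genes were lower without overlap. Slc4a1, the band 3 anion exchanger, was at 260.3, 56.9 and 151 FPKM in TBI replicates 1 to 3 and at 12.5, 50.5 and 12.8 FPKM in TBI+DEIX replicates 1 to 3. TBI replicate 2 and TBI+DEIX replicate 2 were close to each other, and the rest were far apart. The log2 difference of Slc4a1 was -2.64 ± 0.69 (adjusted p = 0.0418). Epb42, the skeleton protein 4.2 that binds band 3, was at 26.6, 5.79 and 14.4 FPKM in TBI and 0.397, 4.69 and 1.16 FPKM in TBI+DEIX (-2.46 ± 0.62, adjusted p = 0.036). In both, TBI replicate 1 was the highest of the 6 libraries and TBI+DEIX replicate 1 the lowest. The Rhesus gene Rhd was at 70.6, 28.1 and 65.7 FPKM in TBI and 11.2, 21.2 and 7.38 FPKM in TBI+DEIX (-1.98 ± 0.46, adjusted p = 0.0322), and the Kell blood group gene Kel at 60.6, 16.9 and 41.3 FPKM in TBI and 6.72, 10.8 and 7.39 FPKM in TBI+DEIX (-1.98 ± 0.46, adjusted p = 0.0311). In these the lowest libraries were TBI+DEIX replicates 1 and 3. Dmtn, which encodes the actin-bundling protein dematin, was at 8.16 to 25.8 FPKM in TBI and 1.61 to 7.09 FPKM in TBI+DEIX (-2.12 ± 0.54), and the water channel gene Aqp1 at 63.9 to 149 and 16.5 to 40.7 FPKM (-1.87 ± 0.46). The skeleton gene Tmod1 (-1.59 ± 0.43) was called lower as well. The exception among the 20 to the separation was Epb41, which encodes protein 4.1 (63.7, 33.1 and 41.9 FPKM in TBI, 42.6, 36 and 34 FPKM in TBI+DEIX).

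Leaving out TBI+DEIX replicate 1 kept the median at -1.61, and 14 of the 20 genes were then called lower. In the 5 TBI and TBI+DEIX libraries left without it, fitted alone, 7 were called lower, beside 4.75% of all genes. Slc4a1, Epb42, Rhd, Kel and Dmtn were not among the 7. With the other groups in the model, the count was 0 when TBI replicate 1, TBI replicate 3, TBI+DEIX replicate 3 or control replicate 1 or 2 was left out, 2 without control replicate 3 and 5 without DEIX replicate 3. It was also 0 when genes of low value were not filtered out, and 7 with a pseudocount of 5. The median ranged from -1.96 to -1.33 over the fits that left out 1 library. The spread within groups was wide: the summed FPKM of the list was 1251, 575 and 1076 in the TBI replicates, 347, 469 and 289 in the TBI+DEIX replicates, 707 to 768 in controls and 424, 1119 and 445 in DEIX mice. DEIX replicate 2 was thus inside the TBI range, and the other DEIX libraries were below it.

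**Figure D3:**
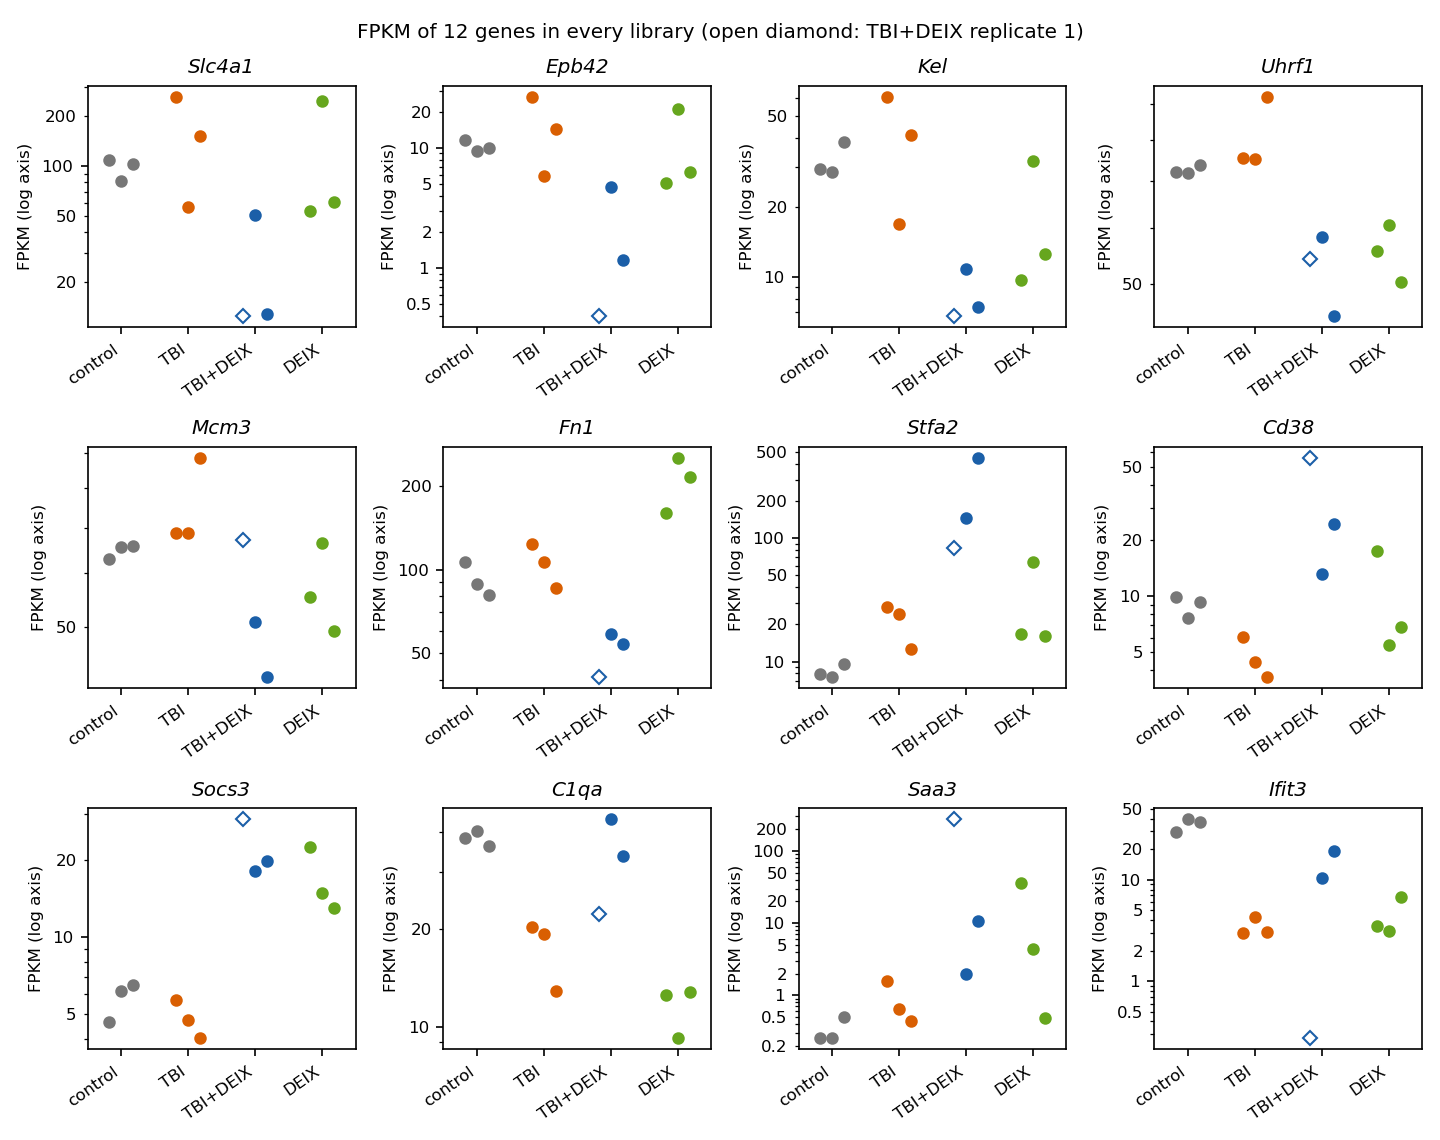
FPKM (log axis) of 12 genes in every library, by group, with TBI+DEIX replicate 1 as an open diamond. The red cell genes Slc4a1, Epb42 and Kel and the replication gene Uhrf1 are lower in all 3 TBI+DEIX libraries than in TBI, Socs3, Cd38 and Stfa2 are higher in all 3, and Saa3 and Ifit3 place replicate 1 at opposite ends.

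Haem synthesis genes were lower as well. Of 14 tested haem synthesis genes, 13 were lower, with a median of -1.10, and 4 were called lower: Uros, Alad, Urod and the porphyrin carrier gene Tmem14c. Uros, the uroporphyrinogen synthase gene, was at 32, 19.9 and 36.3 FPKM in TBI and 4.32, 13.6 and 6.38 FPKM in TBI+DEIX (-1.83 ± 0.37, adjusted p = 0.0205). Alas2, the erythroid form of the first enzyme of haem synthesis, was at 132, 18 and 45.5 FPKM in TBI and 2.58, 17.6 and 4.19 FPKM in TBI+DEIX and missed the threshold (-2.80 ± 0.79, adjusted p = 0.0525). Alas1, the form used outside the red cell lineage, was the one member on the other side, at 172, 135 and 103 FPKM in TBI and 215, 231 and 254 FPKM in TBI+DEIX (0.80 ± 0.24, adjusted p = 0.0654). It was called higher without TBI+DEIX replicate 1 (adjusted p = 0.0416), a fit in which 6 members were called lower. The 4 falls numbered 0 without TBI replicate 3 or TBI+DEIX replicate 3, 1 without TBI replicate 1, any control replicate or the filter on low values, 2 without DEIX replicate 1 or 3, 10 without DEIX replicate 2, and 7 or 6 when TBI+DEIX replicate 2 or TBI replicate 2 was left out.

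The 4 adult globin genes had the largest median of any list, -3.10, and none passed adjustment. Hba-a1 was at 4074, 866 and 1922 FPKM in TBI and 75.4, 777 and 203 FPKM in TBI+DEIX (-3.04 ± 0.86, adjusted p = 0.0537), and Hbb-bs at 3355, 642 and 976 FPKM in TBI and 34.2, 579 and 143 FPKM in TBI+DEIX (-3.16 ± 1.01, adjusted p = 0.0746). All 4 globins were lower in every TBI+DEIX library than in every TBI library, with TBI replicate 2 and TBI+DEIX replicate 2 close to each other. TBI+DEIX replicate 1 held the lowest globin values of all 12 libraries, and the median was -2.20 without it. All 4 were called lower without TBI+DEIX replicate 2, and 3 without DEIX replicate 2. The α-globin genes Hba-a1 and Hba-a2 are near-identical copies, as are the 2 β-globin genes, so the split of reads within each pair is uncertain.

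Among erythroid transcription factors and the Epo receptor, 2 of 16 were called lower, against 3.41% of all genes. These were Lmo2, the bridging subunit of the TAL1 complex (109, 92.1 and 105 FPKM in TBI, 55.5, 75.8 and 76 FPKM in TBI+DEIX), and Epor, which encodes the erythropoietin receptor (21.2, 16.9 and 28.9 FPKM in TBI and 8.45, 12.1 and 6.12 FPKM in TBI+DEIX, -1.25 ± 0.33, adjusted p = 0.0417). The master regulators Klf1 and Gata1 were lower in every TBI+DEIX library than in every TBI library and missed the threshold (-1.36 ± 0.41 and -1.08 ± 0.37, adjusted p = 0.0628 and 0.088). Nfe2 and Stat5b, which myeloid cells also use, were above 0 (0.31 and 0.28) and were called higher without TBI+DEIX replicate 1. The list held 0 calls without TBI replicate 3, TBI+DEIX replicate 3 or any control replicate or under TPM, 1 without TBI replicate 1 or 2 or DEIX replicate 3, 4 falls without TBI+DEIX replicate 1 or 2 and 8 without DEIX replicate 2.

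Of the late erythroblast genes, all 21 were lower and 8 were called, among them Hemgn, a nuclear regulator of erythroid maturation (60.9, 26.2 and 58.6 FPKM in TBI and 7.81, 19.3 and 6.66 FPKM in TBI+DEIX, -2.06 ± 0.48, adjusted p = 0.0304), Trim10, an erythroid ubiquitin ligase (-2.21 ± 0.58), and Mgst3, a microsomal glutathione transferase (40.7, 16.5 and 33.8 FPKM in TBI and 1.87, 11.9 and 6.56 FPKM in TBI+DEIX, -2.17 ± 0.49). The number was again 8 without TBI+DEIX replicate 1. It was 0 without TBI replicate 1, TBI replicate 3, TBI+DEIX replicate 3, control replicate 2 or the filter on low values, 3 without control replicate 1 or 3, 4 without DEIX replicate 3 or with a pseudocount of 5, and 5 without DEIX replicate 1. In the iron list, 1 of 16 rose (Fbxl5, above) and 1 fell (12.5% in all, against 8.1% of all tested genes), the endosomal ferrireductase gene Steap3 (17.6, 21.2 and 32.7 FPKM in TBI and 9.03, 15.5 and 8.53 FPKM in TBI+DEIX, -1.05 ± 0.29, adjusted p = 0.048). The transferrin receptor Tfrc was at 155, 90.6 and 151 FPKM in TBI and 62.8, 72.8 and 37.8 FPKM in TBI+DEIX and the ferritin light chain Ftl1 at 1982, 2045 and 1989 FPKM in TBI and 1044, 2885 and 2829 FPKM in TBI+DEIX (adjusted p = 0.0569 and 0.971). Tfrc did not overlap between the groups, whereas Ftl1 placed TBI+DEIX replicate 1 below and replicates 2 and 3 above TBI. The call of Steap3 was lost without TBI replicate 2, TBI replicate 3, TBI+DEIX replicate 3 and any control or DEIX replicate other than DEIX replicate 2, and also under TPM, without the filter on low values and without the mean-variance trend.

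Other named falls came from genes of less studied roles, mostly at modest levels. Smim1, the Vel blood group gene, was at 16.9, 13.1 and 24.7 FPKM in TBI and 2.49, 7.36 and 2.94 FPKM in TBI+DEIX (-1.94 ± 0.38, adjusted p = 0.0198). Fn3k, a kinase gene that helps remove sugar from glycated proteins, was at 13.4, 2.79 and 9.13 FPKM in TBI and 0.356, 2.09 and 0.61 FPKM in TBI+DEIX (-2.12 ± 0.48). The butyrophilin family gene Btnl10 (-1.90 ± 0.47), the yippee family gene Ypel4 (-2.13 ± 0.57), the tetraspanin gene Tspan8 (-1.89 ± 0.38) and Nxpe2 (-1.96 ± 0.35) fell too. The calls of Smim1, Tspan8 and Nxpe2 were lost without TBI replicate 3 or TBI+DEIX replicate 3. Those of Fn3k, Btnl10 and Ypel4 were also lost without TBI replicate 1, control replicate 2 or the filter on low values. Those of Btnl10 and Ypel4 were lost without control replicate 1 or 3 or DEIX replicate 3 as well. Btnl10 also lost its call under TPM, and Ypel4 without DEIX replicate 1, with a pseudocount of 5 and under quantile normalization.

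The promoters of Kel and Rhd are shown because they carry the letters that the GATA factors of red cells bind. The RefSeq windows (GRCm38.p6, 250 bases before to 50 after the start site, here read along the gene's strand) were searched for AGATAA on both strands, and capitals mark the match. Kel lies on the minus strand of chromosome 6 (window chr6:41704276-41704575) with a match starting at -56 from the start site, and Rhd on the plus strand of chromosome 4 (chr4:134864286-134864585) with a match at -43.
Kel: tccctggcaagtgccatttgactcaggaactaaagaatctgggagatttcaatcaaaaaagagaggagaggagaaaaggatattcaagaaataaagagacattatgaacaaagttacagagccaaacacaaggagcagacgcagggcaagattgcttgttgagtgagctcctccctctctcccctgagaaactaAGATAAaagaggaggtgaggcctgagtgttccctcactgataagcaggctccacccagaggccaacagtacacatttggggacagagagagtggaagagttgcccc
Rhd: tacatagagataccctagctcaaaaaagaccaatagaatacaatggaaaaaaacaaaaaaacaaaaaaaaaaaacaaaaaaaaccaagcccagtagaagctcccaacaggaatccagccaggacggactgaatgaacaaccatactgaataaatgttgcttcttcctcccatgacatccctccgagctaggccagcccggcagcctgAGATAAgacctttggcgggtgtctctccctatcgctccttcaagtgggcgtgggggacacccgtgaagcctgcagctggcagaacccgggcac
AGATAA occurred in 4 of the 13 red cell membrane genes with a window (30.8%), in 2 of 12 haem synthesis genes, in 2 of 15 late erythroblast genes and in 6.54% of the 8779 tested genes with one. It also occurred in 6 of 22 interferon response genes (27.3%), a share close to that of the red cell membrane list. The promoters of Kel and Rhd were chosen after the matches were seen, and a match is a description of letters, not a binding site.

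DNA replication genes were lower by a smaller step. All 49 tested members were lower in TBI+DEIX, 30 of them called, where 3.41% of all genes were called lower. The median difference was -0.55. Uhrf1, which couples DNA methylation to replication, was at 75.4, 75.2 and 92.1 FPKM in TBI replicates 1 to 3 and 54.3, 58.4 and 45 FPKM in TBI+DEIX replicates 1 to 3. All TBI+DEIX libraries were below the lowest TBI library, and the difference was -0.61 ± 0.12 (adjusted p = 0.0201). The replicative helicase genes Mcm7 (122, 109 and 136 FPKM in TBI and 74.1, 78.9 and 71.4 FPKM in TBI+DEIX, -0.70 ± 0.12), Mcm2 (-0.70 ± 0.16), Mcm4 (-0.58 ± 0.14) and Mcm5 (-0.49 ± 0.13) were called. Mcm3 and Mcm6 were not, and here TBI+DEIX replicate 1 was the highest of its group (67.1, 50.9 and 42.3 FPKM for Mcm3, against 68.6, 68.6 and 88.5 in TBI). Pcna, the sliding clamp, was at 251, 242 and 312 FPKM in TBI and 124, 187 and 161 FPKM in TBI+DEIX (-0.78 ± 0.17, adjusted p = 0.0254). The nucleotide supply genes Rrm2 (-0.52 ± 0.14) and Tk1 (-0.70 ± 0.13) and the primase gene Prim1 (-0.64 ± 0.13) were called lower as well. Rfc1, the large clamp loader subunit, was nearly level (-0.04). The summed FPKM of the list in TBI replicate 3 was 2906, against 2384 and 2259 in the other TBI libraries and 1536 to 1764 in TBI+DEIX.

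In the fit without TBI+DEIX replicate 1, 44 of the 49 replication genes were called lower, with a median of -0.61. The count was 0 without either TBI replicate 3 or TBI+DEIX replicate 3, 14 without TBI replicate 2 or control replicate 2, and 17 without control replicate 1 or 3. It was 3 under TPM, where the median was -0.70, and 19 without the filter on low values. The median kept its sign in every fit that left out 1 library, between -0.65 and -0.44.

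The 25 DNA damage signalling and repair genes, several of which are expressed in S phase, were likewise all lower, with a median of -0.41 and 3 called (12%, against 3.41% of all genes called lower): Rad54l (15.4, 13.5 and 17.9 FPKM in TBI and 8.09, 10.4 and 9.55 FPKM in TBI+DEIX, -0.68 ± 0.13), and the checkpoint kinase genes Chek2 (-0.62 ± 0.12) and Chek1 (-0.59 ± 0.13). The count was 17 when TBI+DEIX replicate 1 was left out, where 9.59% of all genes were called lower, 7 without TBI replicate 1, and 1 under TPM. Of 39 mitosis genes, 37 were lower, with a median of -0.25 and 3 called (7.69%, against 3.41% of all genes): Nusap1, a spindle protein (61.7, 49 and 57.3 FPKM in TBI and 37.8, 43.2 and 39.8 FPKM in TBI+DEIX, -0.46 ± 0.11), the kinetochore gene Nuf2 (-0.32 ± 0.08) and the spindle checkpoint gene Mad2l1 (-0.37 ± 0.10). The proliferation marker Mki67 was at 168, 114 and 121 FPKM in TBI and 136, 98.3 and 92.9 FPKM in TBI+DEIX (-0.30 ± 0.17, adjusted p = 0.296), with TBI+DEIX replicate 1 inside the TBI range. Without that library 26 mitosis genes were called lower, against the same 9.59%, and the median was -0.38. Neither list held a call without TBI replicate 3 or TBI+DEIX replicate 3, and mitosis held 0 to 1 without TBI replicate 1 or 2, TBI+DEIX replicate 2, DEIX replicate 3 or any control replicate and 0 under TPM. The CDK inhibitor list held 4 tested genes, of which 3 were lower and 1 was higher, with a median of -0.10. Its 1 call was the rise of Cdkn2d, the inhibitor p19 of the G1 kinases CDK4 and CDK6 (118, 98.4 and 96.7 FPKM in TBI and 174, 156 and 172 FPKM in TBI+DEIX, 0.68 ± 0.16, adjusted p = 0.0322). That call was lost without TBI replicate 2, TBI replicate 3, TBI+DEIX replicate 3 or control replicate 2 and under TPM, TPM without the 3 genes or quantile normalization.

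The promoters of Uhrf1 and Pola1 are shown as examples of the E2F letters that many S phase genes share. Both genes were called lower, Pola1, the catalytic subunit of the polymerase that starts each strand, at 16.1, 14 and 16.6 FPKM in TBI and 11, 10.2 and 8.28 FPKM in TBI+DEIX (-0.62 ± 0.13). The windows are from the same RefSeq table, chr17:56303087-56303386 on the plus strand for Uhrf1 and chrX:93632106-93632405 on the minus strand for Pola1. Capitals mark GCGGGAA on either strand, at -48 in Uhrf1 and at -169 and -121 in Pola1.
Uhrf1: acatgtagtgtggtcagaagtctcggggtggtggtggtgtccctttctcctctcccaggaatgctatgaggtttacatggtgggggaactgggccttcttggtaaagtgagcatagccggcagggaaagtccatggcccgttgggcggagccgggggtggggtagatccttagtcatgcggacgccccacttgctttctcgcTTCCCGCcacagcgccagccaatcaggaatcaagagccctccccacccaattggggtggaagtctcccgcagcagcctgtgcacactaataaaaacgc
Pola1: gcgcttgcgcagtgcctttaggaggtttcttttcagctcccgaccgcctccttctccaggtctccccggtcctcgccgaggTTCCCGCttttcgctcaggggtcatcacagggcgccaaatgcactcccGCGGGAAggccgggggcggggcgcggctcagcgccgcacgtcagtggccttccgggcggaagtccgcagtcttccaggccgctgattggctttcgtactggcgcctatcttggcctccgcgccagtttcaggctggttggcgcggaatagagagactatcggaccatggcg
GCGGGAA was present in 17 of the 40 replication genes with a window (42.5%) and in 8.79% of all tested genes with one. The list was chosen for function, and no test was made of this share.

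**Figure D4:**
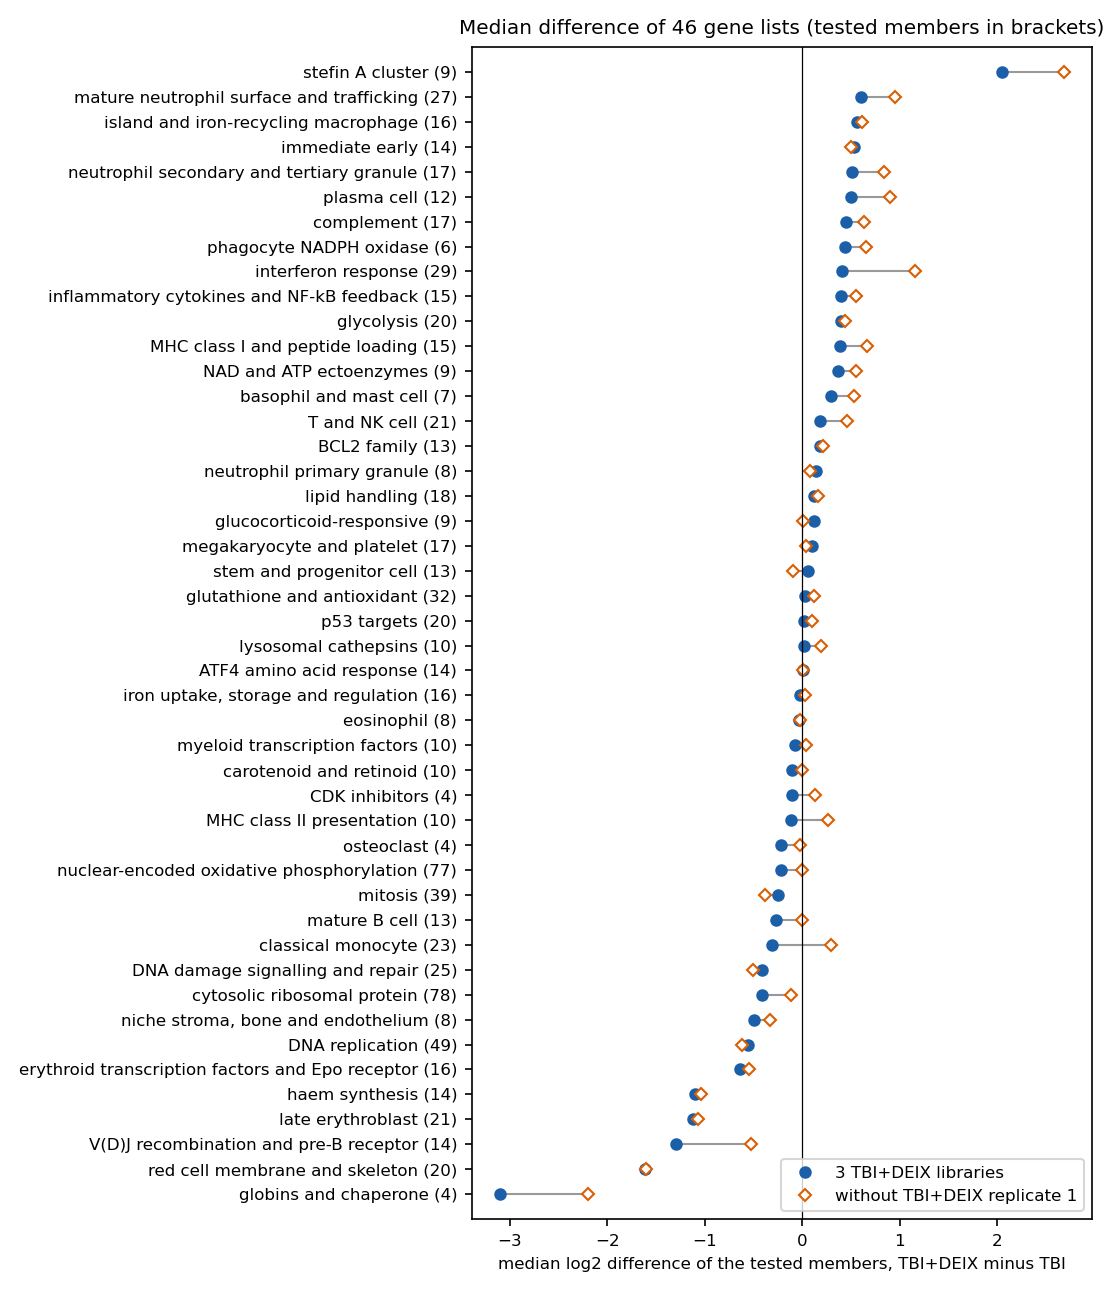
Median log2 difference between TBI+DEIX and TBI over the tested members of 46 gene lists, with all libraries (filled) and without TBI+DEIX replicate 1 (open). The stefin A cluster lies highest at 2.05 and the globins lowest at -3.10, and the interferon response list moves from 0.41 to 1.15.

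Among called genes the largest rises were those of the stefins Stfa2 and Stfa3. Stefins are small intracellular inhibitors of cysteine cathepsins that mature mouse neutrophils express from a gene cluster on chromosome 16. Of 9 tested members of the list (the cluster and its relatives), 3 were called higher, with a median log2 difference of 2.05. Stfa2 was at 27.9, 24.3 and 12.6 FPKM in TBI replicates 1 to 3 and 84, 147 and 449 FPKM in TBI+DEIX replicates 1 to 3. The TBI+DEIX libraries were all above the TBI libraries and spread more than 5-fold among themselves, with replicate 3 highest. The difference was 3.05 ± 0.61 (adjusted p = 0.0203). Stfa3 was at 42.1, 44.3 and 25.4 FPKM in TBI and 105, 221 and 737 FPKM in TBI+DEIX (2.80 ± 0.61, adjusted p = 0.0251), and the third called gene was the family member BC117090 (0.802, 0.662 and 0.469 FPKM in TBI and 2.73, 6.96 and 12.9 FPKM in TBI+DEIX). Stfa1 (51.8, 48.6 and 26.8 FPKM in TBI and 63.3, 180.2 and 443 FPKM in TBI+DEIX) did not overlap between groups but missed the threshold (adjusted p = 0.0598). Stfa2l1 (265, 268 and 135 FPKM in TBI and 236, 818 and 1475 FPKM in TBI+DEIX) overlapped through TBI+DEIX replicate 1. Leaving that library out gave 7 rises among the 9 and a median of 2.68. The count was 5 without DEIX replicate 2, 1 when TBI+DEIX replicate 3 was left out and 0 when TBI replicate 3 was. Outside this comparison Stfa2 was at 7.45 to 9.55 FPKM in controls and 16.6, 64.5 and 16 FPKM in DEIX mice.

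The coding sequences of 3 stefins are printed from the GENCODE vM21 transcripts to show how alike these copies are. Stfa1, which is not printed, has 384 coding bases and was less alike, with 57.2% identity to Stfa2. Stfa2 (chr16:36403992-36408457, minus strand), Stfa2l1 (chr16:36156811-36161953, plus strand) and Stfa3 (chr16:36450537-36455392, minus strand) each have 309 coding bases without the stop codon, of which the first 240 are shown. Capitals mark bases that differ from Stfa2 in an alignment.
Stfa2: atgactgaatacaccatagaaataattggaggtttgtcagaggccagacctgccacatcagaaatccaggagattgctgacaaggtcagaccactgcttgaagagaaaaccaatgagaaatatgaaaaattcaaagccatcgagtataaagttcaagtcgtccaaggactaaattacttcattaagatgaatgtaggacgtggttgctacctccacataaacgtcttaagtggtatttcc
Stfa2l1: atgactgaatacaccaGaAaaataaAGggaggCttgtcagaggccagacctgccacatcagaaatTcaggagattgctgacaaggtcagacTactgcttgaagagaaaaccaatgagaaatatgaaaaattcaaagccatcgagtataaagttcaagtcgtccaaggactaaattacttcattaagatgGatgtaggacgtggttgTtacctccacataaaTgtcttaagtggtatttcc
Stfa3: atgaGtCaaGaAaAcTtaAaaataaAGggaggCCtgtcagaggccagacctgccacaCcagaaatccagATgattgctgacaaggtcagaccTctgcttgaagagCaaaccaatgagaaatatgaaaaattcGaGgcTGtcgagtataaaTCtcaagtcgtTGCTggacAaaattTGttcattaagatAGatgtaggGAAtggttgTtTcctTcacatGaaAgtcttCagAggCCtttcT
Over all 309 bases Stfa2l1 differed from Stfa2 at 11 (96.4% identity) and Stfa3 at 59 (80.9%). Short reads can be shared between such copies, so how the signal was divided among the stefins is uncertain, whereas the summed FPKM of the list was 722, 692 and 354 in TBI and 660, 2370.4 and 5326 in TBI+DEIX. TBI+DEIX replicate 1 lay inside the TBI range of that sum.

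Part of the receptors of mature neutrophils rose. In the mature neutrophil surface and trafficking list, 8 of 27 tested genes were called higher and 0 lower, with a median of 0.60, where 4.69% of all genes were called higher. S100a8 and S100a9, which are listed at 0 in some libraries, are among the 27. Il1r2, the decoy receptor for interleukin 1, was at 47.8, 33 and 33.1 FPKM in TBI and 349, 118 and 118 FPKM in TBI+DEIX (2.15 ± 0.35, adjusted p = 0.0146). TBI+DEIX replicate 1 was about 3 times the other TBI+DEIX libraries, which were themselves more than 2 times every TBI library. Ccr1, a receptor for inflammatory chemokines, was at 107, 75.2 and 62.6 FPKM in TBI and 172, 187 and 207 FPKM in TBI+DEIX (1.23 ± 0.18, adjusted p = 0.0108). The Schlafen genes Slfn4 (1.37 ± 0.31) and Slfn1 (1.02 ± 0.21), the integrin subunit gene Itgb2 (0.58 ± 0.14) and the membrane protease gene Mmp25 (0.78 ± 0.17) were higher in every TBI+DEIX library than in every TBI library. Clec4e and Trem1, receptors that amplify innate responses, were called higher (1.17 ± 0.29 and 0.68 ± 0.18) although TBI+DEIX replicate 1 overlapped TBI (50.2 FPKM for Clec4e, against 52.4, 33.1 and 29.4 in TBI). Retnlg and Fpr2 showed the split more sharply. Retnlg was at 8066, 6267 and 5066 FPKM in TBI and 2148, 18070.2 and 13839 FPKM in TBI+DEIX, so replicate 1 was the lowest and replicates 2 and 3 the highest. With replicate 1 left out, 23 of the 27 were called higher, with a median of 0.95, among them the G-CSF receptor gene Csf3r (0.96) and the chemokine receptor gene Cxcr2 (1.31). With TPM without the 3 genes added, that fit called 18 and the median was 0.68. The count was 0 without TBI replicate 3, 2 without TBI replicate 2 or TBI+DEIX replicate 3, 4 without control replicate 2 and 5 without TBI+DEIX replicate 2, without control replicate 1 or under TPM.

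Granule genes of the late stage were called in the fit without the outlying library and those of the early stage were not. None of the 8 primary granule genes of promyelocytes was called, and Mpo was at 1504, 929.8 and 821 FPKM in TBI and 1547, 651 and 834 FPKM in TBI+DEIX. Of 17 secondary and tertiary granule genes, with Ngp among them, 16 were above 0 and 1 was called (5.88%, against 4.69% of all genes called higher), Adam8, a surface protease (90.4, 69.7 and 68.6 FPKM in TBI and 93.2, 173 and 151 FPKM in TBI+DEIX, 0.82 ± 0.20, adjusted p = 0.0349). That call was lost without TBI replicate 2 or 3, TBI+DEIX replicate 2 or 3, any control replicate or the filter on low values, and under TPM. Lcn2, the iron-siderophore binder of secondary granules, was at 8784, 7998 and 6937 FPKM in TBI and 8414, 13324 and 14922 FPKM in TBI+DEIX, and Pglyrp1, a peptidoglycan-binding protein, at 1909, 1683 and 1377 FPKM in TBI and 1394, 2867 and 3053 FPKM in TBI+DEIX. In both, replicates 2 and 3 were above TBI and replicate 1 was within it. In the fit without replicate 1, 12 of the 17 were called higher, against 16.2% of all genes, and the median was 0.84 in place of 0.51, while primary granule genes had 0 calls again and a median of 0.08. Of the phagocyte NADPH oxidase genes, 0 of 6 were called with replicate 1 (median 0.43) and 5 of 6 without it (median 0.65). With TPM without the 3 genes added to the fit without replicate 1, the medians of late granule, primary granule and oxidase genes were 0.56, -0.19 and 0.37, with 10 and 4 calls higher in the late granule and oxidase lists and 2 lower in the primary granule list. Falls made up most of the 3971 calls of that fit among all 10994 tested genes, so the 2 do not set the primary granule list apart. Among 10 myeloid transcription factor genes, 1 was called higher and 2 lower, beside 4.69% and 3.41% of all genes, with a median of -0.07. The rise was that of Spi1, which encodes the myeloid factor PU.1 (196, 162 and 151 FPKM in TBI and 215, 284 and 323 FPKM in TBI+DEIX, 0.68 ± 0.17). Spi1 was not called without TBI replicate 2 or 3, TBI+DEIX replicate 2 or 3, DEIX replicate 3, any control replicate or the filter on low values, or under TPM.

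The fit without TBI+DEIX replicate 1 named further rises in which replicate 1 lay within or below the TBI range or, for Prok2, just above it. Prok2, a small chemoattractant made by neutrophils, was at 19.6, 9.78 and 10.2 FPKM in TBI and 20.1, 74.8 and 81 FPKM in TBI+DEIX (2.54 without replicate 1, adjusted p = 0.0182). Slpi, an inhibitor of neutrophil elastase, was at 296, 261 and 221 FPKM in TBI and 157, 562 and 3855 FPKM in TBI+DEIX (2.51), and Wfdc17, a relative of it, at 276, 156 and 76.4 FPKM in TBI and 142, 567 and 1072 FPKM in TBI+DEIX (2.38). Steap4, a metalloreductase gene, was at 12.6, 7.24 and 6.89 FPKM in TBI and 2.47, 46.5 and 50.9 FPKM in TBI+DEIX (2.37). With all 12 libraries none of these 4 passed (adjusted p = 0.098, 0.316, 0.135 and 0.442).

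**Figure D5:**
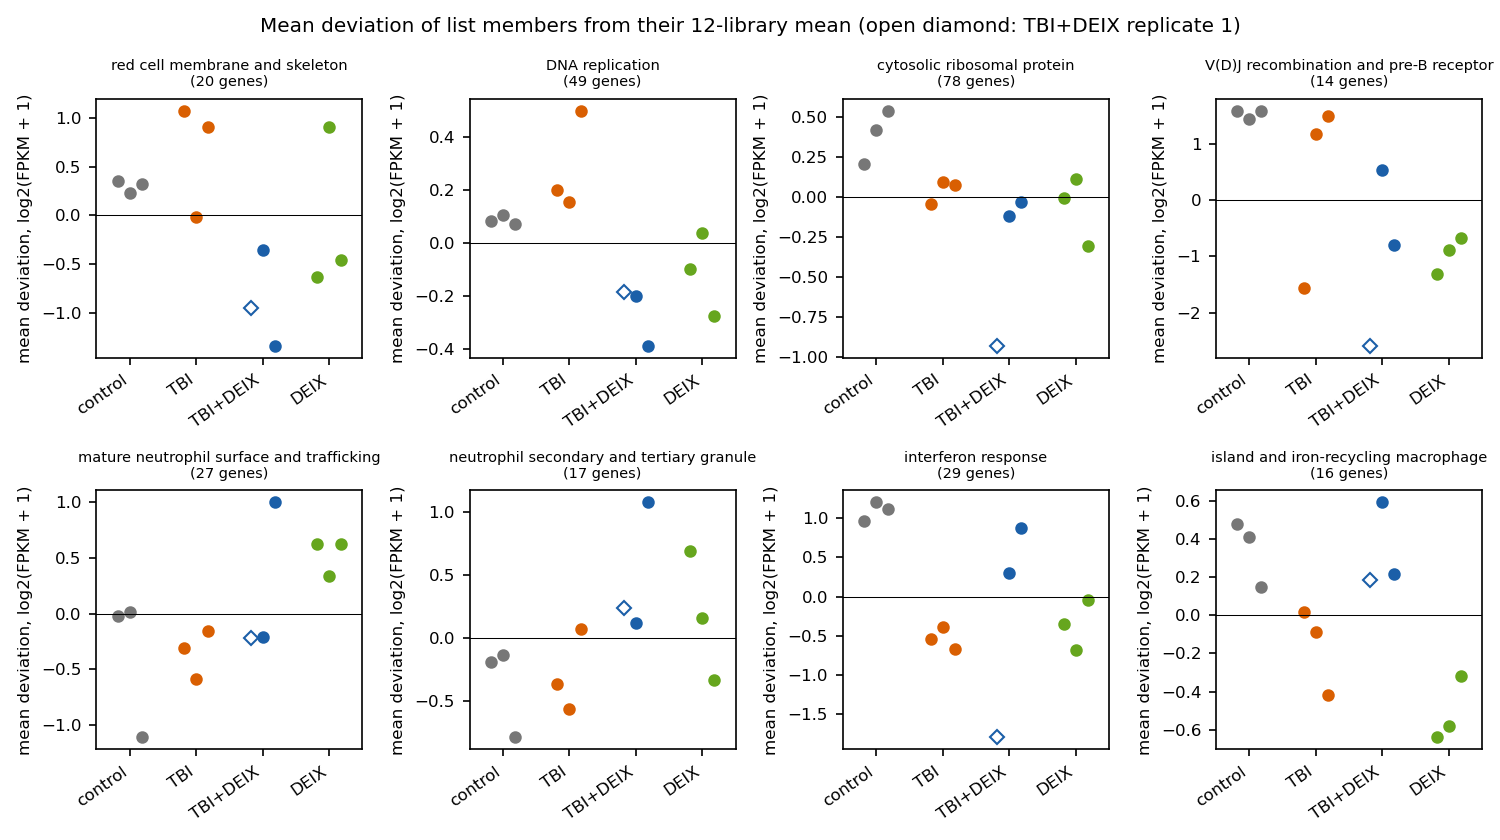
Mean deviation of list members from their mean over 12 libraries, in log2(FPKM + 1), for 8 gene lists and every library, with TBI+DEIX replicate 1 as an open diamond. All 3 TBI+DEIX libraries lie below TBI for red cell membrane and replication genes, whereas replicate 1 lies apart from the other TBI+DEIX libraries for the ribosomal protein and interferon response lists.

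Monocyte and macrophage genes did not move in one direction. Of 23 classical monocyte genes, 1 was called higher and 3 lower (17.4% in all, against 8.1% of all tested genes). Cd14, the lipopolysaccharide co-receptor, was at 5.19, 3.71 and 3.46 FPKM in TBI and 24.6, 12.4 and 15.3 FPKM in TBI+DEIX, with no overlap (1.81 ± 0.22, adjusted p = 0.00651). Fn1, which encodes fibronectin, was at 124, 106 and 85.4 FPKM in TBI and 40.8, 58.6 and 53.8 FPKM in TBI+DEIX (-1.03 ± 0.20, adjusted p = 0.0199). The monocyte transcription factor genes Irf8 (58.5, 44.4 and 51 FPKM in TBI and 15.8, 35.6 and 25.8 FPKM in TBI+DEIX, -1.03 ± 0.22) and Klf4 (23, 13.9 and 13.6 FPKM in TBI and 5.35, 9.37 and 11.5 FPKM in TBI+DEIX, -0.89 ± 0.24) were lower in every TBI+DEIX library than in every TBI library. The median of the list was -0.32 and turned to 0.30 without TBI+DEIX replicate 1, where 3 were called higher and 3 lower, beside 16.2% and 9.59% of all genes. No member was called without TBI replicate 3, and the falls numbered 0 without TBI+DEIX replicate 3 and 1 without TBI replicate 1 or 2.

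In the list of macrophages that form erythroblastic islands and recycle iron, 14 of 16 genes were above 0, the median was 0.56 and 3 were called higher. The complement initiator subunits C1qa (20.3, 19.4 and 12.9 FPKM in TBI, 22.3, 43.9 and 33.7 FPKM in TBI+DEIX, 0.86 ± 0.23) and C1qb (21.4, 20.1 and 12.8 FPKM in TBI and 27.1, 45 and 36.5 FPKM in TBI+DEIX, 0.96 ± 0.20) were called, with adjusted p of 0.0449 and 0.023. Their TBI+DEIX replicates 2 and 3 were close to the controls (36.1 to 40.4 FPKM for C1qa). Hmox1, the haem-degrading enzyme gene, was at 69.4, 63.8 and 44.4 FPKM in TBI and 116, 116 and 75.7 FPKM in TBI+DEIX (0.78 ± 0.19, adjusted p = 0.0353). The haemoglobin scavenger receptor gene Cd163 was at 2.56, 2.51 and 1.68 FPKM in TBI and 13.5, 5.6 and 3.51 FPKM in TBI+DEIX and just missed the threshold (adjusted p = 0.0509), and Vcam1, an adhesion molecule of these macrophages, was nearly level (0.12). Leaving out TBI+DEIX replicate 1 gave 7 rises. The count was 1 without TBI replicate 2, TBI+DEIX replicate 2 or 3, DEIX replicate 3, any control replicate or the filter on low values, and 0 without TBI replicate 3 or under TPM. In the complement list, 3 of 17 were called higher, C1qa, C1qb and Cfb, the serine protease of the alternative pathway (0.81, 1.24 and 0.698 FPKM in TBI and 3.25, 4.36 and 9.44 FPKM in TBI+DEIX, 1.70 ± 0.32, adjusted p = 0.0188). The calls without TBI+DEIX replicate 1 were 11 higher and 1 lower, and among the rises was C5ar1, the anaphylatoxin receptor (150.2, 126 and 123 FPKM in TBI, 121, 278 and 279 FPKM in TBI+DEIX). No complement gene was called without TBI replicate 3 or TBI+DEIX replicate 3.

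Of 9 NAD and ATP ectoenzymes, 3 were called higher, against 4.69% of all tested genes. Cd38, the NAD glycohydrolase, was at 6.04, 4.44 and 3.67 FPKM in TBI and 55.6, 13.2 and 24.6 FPKM in TBI+DEIX (2.28 ± 0.47, adjusted p = 0.0206), with replicate 1 highest. Its paralogue Bst1 was at 41.9, 30.3 and 29 FPKM in TBI and 53.6, 88.2 and 82.4 FPKM in TBI+DEIX (1.11 ± 0.21), with replicate 1 lowest of the TBI+DEIX group and still above TBI. Entpd3, an ATP-hydrolysing enzyme, was at 2.14, 0.971 and 0.688 FPKM in TBI and 43, 5.04 and 7.75 FPKM in TBI+DEIX (2.6 ± 0.57, and 1.73 without replicate 1). Of the 3 calls, 1 was left without TBI replicate 2, and 0 when TBI replicate 3 or TBI+DEIX replicate 3 was dropped.

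Il4ra, the interleukin 4 receptor α chain gene, was at 24.5, 15.6 and 16.1 FPKM in TBI and 108, 41.1 and 49.8 FPKM in TBI+DEIX (1.67 ± 0.33), and Ifitm1, an interferon-inducible membrane protein gene, at 275, 151 and 107 FPKM in TBI and 285, 609 and 1086 FPKM in TBI+DEIX (1.80 ± 0.43). Asprv1, a retroviral-like aspartic protease gene, was at 141, 86.5 and 68.8 FPKM in TBI and 276, 439 and 458 FPKM in TBI+DEIX (2.01 ± 0.27, adjusted p = 0.0102). All 3 TBI+DEIX libraries were above TBI for each, and the replicate that was highest differed. Tgm1, a transglutaminase gene, was at 3.69, 1.81 and 1.62 FPKM in TBI and 12.7, 8.2 and 11.3 FPKM in TBI+DEIX (1.83 ± 0.38). Sema6b, a semaphorin gene, was at 6.57, 4.02 and 3.47 FPKM in TBI and 41.3, 10.3 and 13.7 FPKM in TBI+DEIX (1.79 ± 0.41), and F11r, a junctional adhesion molecule gene, at 1.76, 0.931 and 0.612 FPKM in TBI and 10.2, 2.18 and 7.96 FPKM in TBI+DEIX (1.74 ± 0.42). The calls of Il4ra, Ifitm1, Tgm1, Sema6b and F11r were lost without TBI replicate 2, TBI replicate 3 or TBI+DEIX replicate 3. Those of Ifitm1 and F11r were also lost without any control replicate, that of Sema6b without control replicate 2 or under TPM, that of Ifitm1 without TBI+DEIX replicate 2, and those of Ifitm1, Sema6b and F11r without the filter on low values. That of Asprv1 was lost only without TBI replicate 3 among the fits that left out 1 library.

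Some signalling and early response genes rose. Of 15 inflammatory cytokine and NF-kB feedback genes, 14 were above 0 and 4 were called higher, against 4.69% of all genes: Socs3, the adaptor gene Myd88 (69.9, 62.6 and 59.1 FPKM in TBI and 124, 102 and 128 FPKM in TBI+DEIX, 0.87 ± 0.15, adjusted p = 0.016), Ier3 (0.76 ± 0.16) and Nfkbiz (0.51 ± 0.10). Of 14 immediate early genes, 3 were called higher, against the same 4.69%: Klf2 (56.6, 50.7 and 50.9 FPKM in TBI and 110.5, 99.7 and 99.3 FPKM in TBI+DEIX, 0.96 ± 0.13), Klf6 (0.58 ± 0.11) and Junb (0.93 ± 0.18). The median of this list was 0.53, with 12 members higher and 2 lower, 1 of these without overlap between the groups. Its lowest member had a log2 difference of -1.86 and was not called. The TBI+DEIX values of Klf2, a factor known for keeping leukocytes quiescent, were close to each other, replicate 1 among them. Mcl1, the survival protein neutrophils depend on, was at 249, 224 and 219.8 FPKM in TBI and 334, 373 and 369.5 FPKM in TBI+DEIX (0.63 ± 0.10, adjusted p = 0.0157). Mdm2 was the 1 of 20 p53 targets called, a share of 5.0% near the 4.69% of all genes called higher (33.5, 30.5 and 33.2 FPKM in TBI and 43.1, 43.7 and 43.8 FPKM in TBI+DEIX, 0.42 ± 0.08), and the median of the p53 list was 0.02. The median of the p53 list was -0.11 under TPM. All of these calls but that of Socs3 were lost without TBI replicate 3, 1 call each was left in the inflammatory and immediate early lists and 0 in the p53 and BCL2 family lists without TBI+DEIX replicate 3, and that of Mdm2 was also lost without TBI replicate 2. Under TPM 1 call was left in the inflammatory list and 0 in the immediate early, p53 and BCL2 family lists.

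Part of the glucose and glutathione genes changed. Of 20 glycolysis genes, 19 were above 0 and 3 were called higher, against 4.69% of all genes: the glucose transporters Slc2a1 (12.4, 8.96 and 8.59 FPKM in TBI and 25.7, 19.4 and 20.1 FPKM in TBI+DEIX, 1.05 ± 0.17, adjusted p = 0.0146) and Slc2a3 (0.79 ± 0.15) and the regulator gene Pfkfb4 (0.63 ± 0.16). The number was 10 without TBI+DEIX replicate 1, 1 without TBI replicate 2 or TBI+DEIX replicate 3 and 0 without TBI replicate 3 or under TPM. Of 32 glutathione and antioxidant genes, 4 rose and 4 fell, where 4.69% of all genes rose and 3.41% fell, and the median was 0.02, and -0.11 under TPM. Ggt1, which begins the breakdown of extracellular glutathione, was at 16.4, 7.19 and 5.6 FPKM in TBI and 40.0, 43.3 and 61.1 FPKM in TBI+DEIX (2.30 ± 0.46, adjusted p = 0.0205). Ggt5 (1.01 ± 0.18), the glutathione reductase gene Gsr (0.53 ± 0.13) and Hmox1 rose with it. Those that fell were Mgst3, Prdx2, the abundant red cell peroxiredoxin (249, 168 and 319.9 FPKM in TBI and 76.8, 120.2 and 75.4 FPKM in TBI+DEIX, -1.41 ± 0.36), its mitochondrial relative Prdx3 (-0.75 ± 0.17) and catalase, Cat (-0.50 ± 0.13). There were 9 rises and 6 falls without TBI+DEIX replicate 1, beside 16.2% and 9.59% of all genes, none without TBI replicate 3, 1 rise and 0 falls without TBI+DEIX replicate 3, 1 rise and 2 falls without TBI replicate 2, 5 rises and 1 fall without TBI replicate 1, 2 rises and 4 falls without TBI+DEIX replicate 2, 3 rises and 2 falls without control replicate 1 or 3, 2 rises and 0 falls without control replicate 2 and 1 of each under TPM.

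Because DEIX is a carotenoid, genes of carotenoid uptake and retinoid signalling were read as well. The receptor gene Rara rose (26.3, 21.6 and 24.5 FPKM in TBI and 28.3, 40.7 and 38.5 FPKM in TBI+DEIX, 0.54 ± 0.14), Aldh1a1, a retinaldehyde dehydrogenase gene, fell (22.3, 8.06 and 22.4 FPKM in TBI and 5.36, 5.14 and 3.67 FPKM in TBI+DEIX, -1.59 ± 0.35), and the other 8 of 10, with the lipoprotein receptor gene Scarb1 (-0.14 ± 0.10) among them, were not called. The call of Rara was lost without TBI replicate 2, TBI+DEIX replicate 2, DEIX replicate 3, any control replicate or the filter on low values, and under TPM or quantile normalization, that of Aldh1a1 without TBI replicate 1, and both without TBI replicate 3 or TBI+DEIX replicate 3.

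The interferon response divided the TBI+DEIX group. With all libraries, 0 of 29 interferon response genes were called and the median was 0.41. Ifit3, which binds viral RNA complexes, was at 2.97, 4.33 and 3.07 FPKM in TBI and 0.272, 10.4 and 19.3 FPKM in TBI+DEIX replicates 1 to 3. Replicate 1 was below every other library of the study, and replicates 2 and 3 lay between TBI and the controls (29.8 to 39.8 FPKM). Oasl2, an oligoadenylate synthetase-like gene, was at 12.4, 17.5 and 13.4 FPKM in TBI, 1.11, 48 and 80.3 FPKM in TBI+DEIX and 65.1 to 88.3 FPKM in controls, and Rtp4 at 11.6, 15.4 and 11.2 FPKM in TBI, 0.95, 42.9 and 78.7 FPKM in TBI+DEIX and 67.1 to 85.5 FPKM in controls. In both, replicate 1 was again the lowest library, replicate 2 lay between TBI and the controls and replicate 3 lay inside the control range. In the fit without replicate 1, 23 of 29 were called higher, where 16.2% of all genes were, with a median of 1.15 and values of 1.78 for Ifit3 (adjusted p = 0.00517) and 2.04 for Oasl2 (adjusted p = 0.00397). With TPM without the 3 genes added to that fit, 18 were called higher. The median was -0.12 in the fit that left out replicate 3 and kept replicate 1. MHC class I and peptide loading genes were called in 1 of 15 cases with replicate 1 (6.67%, against 4.69% of all genes called higher), the peptide transporter gene Tap2 (39.5, 39.1 and 38.3 FPKM in TBI and 51.3, 55.5 and 63 FPKM in TBI+DEIX, 0.52 ± 0.11), and in 11 of 15 without it, against 16.2%. The call of Tap2 was lost without TBI replicate 2 or 3 or TBI+DEIX replicate 3, and under TPM with or without the 3 genes. The 11 numbered 7 with TPM without the 3 genes added. B2m, the shared light chain, was at 1341, 1427 and 1132 FPKM in TBI and 465, 1896 and 2475 FPKM in TBI+DEIX.

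The promoters of Ifit1 and Ifit3, neighbours on chromosome 19, are shown for the interferon-stimulated response element. Capitals mark GAAA followed, after any 2 bases, by GAAA on either strand, at -104 and -85 in Ifit1 (chr19:34640639-34640938, plus strand) and at -156 and -122 in Ifit3 (chr19:34583279-34583578, plus strand).
Ifit1: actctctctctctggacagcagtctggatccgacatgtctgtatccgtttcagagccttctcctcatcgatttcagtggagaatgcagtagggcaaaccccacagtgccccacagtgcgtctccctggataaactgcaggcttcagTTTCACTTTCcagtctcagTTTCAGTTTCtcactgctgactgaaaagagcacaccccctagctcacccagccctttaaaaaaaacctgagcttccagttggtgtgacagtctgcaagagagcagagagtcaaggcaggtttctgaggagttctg
Ifit3: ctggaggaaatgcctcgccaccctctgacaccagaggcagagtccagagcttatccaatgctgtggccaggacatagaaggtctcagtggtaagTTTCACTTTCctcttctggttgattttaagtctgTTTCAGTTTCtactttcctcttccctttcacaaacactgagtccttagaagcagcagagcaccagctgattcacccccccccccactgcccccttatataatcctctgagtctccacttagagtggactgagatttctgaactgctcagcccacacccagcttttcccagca
These letters were in 14 of the 22 interferon response genes with a window (63.6%) and in 3.33% of all tested genes with one. Ifit1 itself was at 2.19, 2.66 and 1.74 FPKM in TBI and 0.35, 6.91 and 15.7 FPKM in TBI+DEIX.

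B cell precursor genes varied widely within groups. None of 14 V(D)J recombination and pre-B receptor genes passed, and all 14 overlapped between groups. Vpreb1, a surrogate light chain gene of pre-B cells, was at 4.69, 73.7 and 85 FPKM in TBI and 0.552, 45.6 and 10.1 FPKM in TBI+DEIX, so that TBI replicate 1 and TBI+DEIX replicate 1 were the low libraries of their groups. The summed FPKM of the list ran from 44.6 to 542 in TBI and from 12.9 to 274 in TBI+DEIX. Its median was -1.29 with all libraries, -0.53 without TBI+DEIX replicate 1 and -2.21 without TBI replicate 1. In the fit without TBI replicate 1, 5 of the 14 genes were called lower, beside 859 calls in either direction among all 10994 tested genes. No mature B or plasma cell gene was called, and Jchain was at 299, 328 and 230.2 FPKM in TBI and 131, 411 and 1161 FPKM in TBI+DEIX. Of 21 T and NK genes, 1 was called higher, the transcription factor gene Tcf7 (1.7, 2.68 and 2.26 FPKM in TBI and 4.13, 4.1 and 3.86 FPKM in TBI+DEIX, 0.66 ± 0.15), a share of 4.76% against 4.69% of all tested genes called higher. Without TBI+DEIX replicate 1, 12 were called higher, where 16.2% of all genes were. The call of Tcf7 was lost without TBI replicate 1, TBI replicate 3, TBI+DEIX replicate 3 or control replicate 2, and under TPM with or without the 3 genes. The 12 numbered 4 with TPM without the 3 genes added, and 7 in the 5 TBI and TBI+DEIX libraries alone. No MHC class II gene was called with all libraries.

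Of 17 megakaryocyte and platelet genes, 3 were called (17.6%, against 8.1% of all tested genes). Selp, the P-selectin gene, rose (1.12, 1.24 and 1.26 FPKM in TBI and 3.49, 3.43 and 3.46 FPKM in TBI+DEIX, 1.01 ± 0.15, adjusted p = 0.0114), the granule gene Nbeal2 rose (0.49 ± 0.10) and Gp9, a subunit of the von Willebrand factor receptor, fell (3.29, 3.29 and 3.92 FPKM in TBI and 1.29, 1.68 and 2 FPKM in TBI+DEIX, -0.77 ± 0.16). Pf4, the platelet chemokine, was at 4.02, 17.1 and 12.2 FPKM in TBI and 7.45, 10.9 and 14.2 FPKM in TBI+DEIX, all below controls (50.6 to 71.4 FPKM), and the difference was smaller than its error (0.12 ± 0.40). Among stem and progenitor genes, Kit, the stem cell factor receptor gene, was at 14.2, 14 and 13.1 FPKM in TBI and 13.7, 7.94 and 6.89 FPKM in TBI+DEIX and was called lower without TBI+DEIX replicate 1 (-0.82, adjusted p = 0.00371). Ly6a, which encodes Sca-1, was at 14.3, 17.6 and 12.6 FPKM in TBI and 7.86, 27 and 221 FPKM in TBI+DEIX and missed the threshold (adjusted p = 0.395), with replicate 3 far above the rest. It was called higher without TBI+DEIX replicate 1 (2.33, adjusted p = 0.0436). In the niche list 1 of 8 genes was called and in the osteoclast list 1 of 4, beside the same 8.1%. Bglap, the osteoblast gene for osteocalcin, fell at low levels, being listed at 0 in 1 library (1.06, 3.54 and 1.02 FPKM in TBI and 0, 0.368 and 0.149 FPKM in TBI+DEIX), and Nfatc1 of the osteoclast list rose (0.46 ± 0.09). The calls of Selp, Nbeal2, Gp9, Bglap and Nfatc1 were all lost without TBI replicate 3. Leaving out TBI+DEIX replicate 3 left 1 platelet gene called, and the call of Nfatc1 was also lost without TBI replicate 2. Under TPM the calls of Nbeal2 and Nfatc1 were lost, and with a pseudocount of 5 that of Bglap. No eosinophil, basophil and mast cell, glucocorticoid-responsive or ATF4 target gene was called with all libraries.

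Of 78 cytosolic ribosomal protein genes, 77 were lower, with a median of -0.42 and 0 called, and 77 oxidative phosphorylation genes had a median of -0.22 with 0 called. Leaving out TBI+DEIX replicate 1 gave medians of -0.11 and 0.00, with 1 ribosomal gene called lower (Rpl3) and 0 of the others. With TPM without the 3 genes added to that fit, where the median of all tested genes was -0.25, 43 ribosomal and 27 oxidative phosphorylation genes were called lower. That fit called 3971 of all 10994 tested genes, most of them lower, so falls were common outside these lists too. Many of these genes have short transcripts, and the part of transcript length in their values was not tested.

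What TBI+DEIX replicate 1 held can be stated only as values, since it is 1 library. Saa3, an acute phase apolipoprotein gene, was at 277 FPKM there, against 0.254 to 36 FPKM in the other 11 libraries. Nos2, the inducible nitric oxide synthase gene, was at 9.69 FPKM against 0.00404 to 2.23, and Adamtsl4, a gene of the extracellular matrix, at 28.2 FPKM against 0.662 to 4.06. Col5a1, a fibrillar collagen gene, was at 19.7 FPKM against 1.65 to 5.78. Entpd3 and Scrg1 were also highest there, and for both the other TBI+DEIX libraries were already above TBI (185, 64.9 and 68.4 FPKM for Scrg1, against 39.8, 33.6 and 32.7 in TBI). At the low end, Lyz2, the lysozyme gene of neutrophils and macrophages, was at 919 FPKM against 6119 to 11441 FPKM, and the calcium-binding protein gene S100a4 at 22.7 against 222 to 522 FPKM. Ifi27l2a, an interferon-inducible gene, was at 2.62 against 52.8 to 766 FPKM. The LIM protein gene Crip1 (40.7 against 249.5 to 711 FPKM), the B cell and granulocyte gene Clec2d (2.29 against 17.5 to 54.3 FPKM) and Sirpb1b (1.61 against 12.5 to 42.1 FPKM) were likewise lowest there. These genes were named by a rule that ranks distance from the range of the other libraries, so their separation is a description.

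Whether DEIX acted differently in irradiated and unirradiated mice was read from the interaction in the same model. It was called for 22 genes, 0.2% of those tested, 21 of them with the more positive change in irradiated mice, and for 331 without TBI+DEIX replicate 1. Leaving out another library gave between 4 (without TBI replicate 2) and 20 calls, with 13 without TBI replicate 1 or TBI+DEIX replicate 2, 6, 11 and 5 without control replicates 1, 2 and 3, and 8 and 11 without DEIX replicates 1 and 3. C1qa and C1qb were at 9.23 to 12.8 and 10.6 to 13 FPKM in DEIX mice, against 36.1 to 40.4 and 31.9 to 37.3 FPKM in controls, and so lay lower with DEIX there while they rose in irradiated mice. Fn1 was at 160.1 to 253 FPKM in DEIX mice against 81 to 106 FPKM in controls, and fell in irradiated mice. H2-Q6, an MHC class I gene, was at 53.7 to 75.2 FPKM in controls, 13.5 to 16.4 FPKM in DEIX mice, 4.42 to 8.44 FPKM in TBI and 9.25 to 16.6 FPKM in TBI+DEIX, so that controls were high and all other groups low. A more positive change did not always mean a rise in irradiated mice. Srpk3 was at 2.98 to 4.26 FPKM in controls, 0.405 to 0.845 FPKM in DEIX mice, 0.0863 to 0.141 FPKM in TBI and 0.0869 to 0.195 FPKM in TBI+DEIX. Il4i1 was at 3.77 to 5.38, 0.892 to 1.33, 0.325 to 0.477 and 0.118 to 0.516 FPKM in the same order. Neither was called between TBI+DEIX and TBI.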

How the data were processed

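Total RNA of whole bone marrow cells was sequenced in 12 libraries, 3 in each of 4 groups. Per the submitters' processing notes, STAR 2.6 and Cufflinks 2.2.1 were used with mm10, and the deposited table holds the authors' FPKM values per Ensembl gene. The annotation and whether counting used strand are not given in the sources used here. All 21853 identifiers matched protein-coding genes of GENCODE vM21, and 24 symbols are shared by more than 1 identifier. Depth is unknown, so no counting interval is given.

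Genes with at least 1 FPKM in at least 3 libraries (10994) were fitted on log2(FPKM + 1), which understates the change of low genes, with limma 3.58.1 in R 4.3.3 (lmFit and eBayes with a mean-variance trend, group means, 8 residual degrees of freedom). Every adjusted p is from limma with Benjamini-Hochberg adjustment over all tested genes, a gene is called below 0.05, and a difference is given ± SE as TBI+DEIX minus TBI. The calculation was tested on simulated data. Members and gene lists were chosen with earlier results of these data known. Named were the 15 largest rises and 15 largest falls among called genes that did not overlap between groups and reached a mean of 5 FPKM, 10 each way without TBI+DEIX replicate 1, called list members with the 3 highest members of a list, and the 10 genes each way farthest outside the other libraries in TBI+DEIX replicate 1. Other list members and the 5 genes called without TBI replicate 3 were named after their values were seen, and some genes that the rule names are not reported here. Alternatives were pseudocounts of 0.1 and 5, filters, TPM, median of ratios, quantile normalization, array weights, no trend, leaving out each library, the 6 libraries alone and a replicate block, and 4 combinations chosen after seeing the data. Replicate numbers did not pair the samples. Promoters are RefSeq windows of GRCm38.p6, found for 8779 tested genes. Tables and figures were made with Python 3.11.15, pandas 2.3.3, numpy 2.4.6, scipy 1.17.1 and matplotlib 3.10.9.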

Additional observations from a re-analysis of the deposited data

Results flagged for a closer look

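For 8 genes the change with DEIX differed between irradiated and unirradiated mice by the interaction term of limma, among the named genes and the members of the gene lists. The difference of the 2 log2 changes (irradiated minus unirradiated) was 2.52 for C1qa, 2.43 for C1qb and 2.27 for C1qc, the 3 chains of complement C1q (adjusted p = 0.0142, 0.0142 and 0.016). C1qc was at 15.3, 13.8 and 9.79 FPKM in TBI, 14.2, 28.1 and 21.5 FPKM in TBI+DEIX, 23.6 to 28.3 FPKM in controls and 6.32 to 9.1 FPKM in DEIX mice. The macrophage genes Spic and Cd5l had differences of 2.51 and 2.2 (adjusted p = 0.0338 and 0.016). Spic was at 3.64, 3.99 and 3.3 FPKM in TBI, 9.89, 8.26 and 3.9 FPKM in TBI+DEIX, 5.72 to 8.23 FPKM in controls and 0.776 to 2.01 FPKM in DEIX mice. The MHC class I genes H2-Q4 and H2-Q6, related genes whose sequences were not compared here and between which reads may be split, had differences of 1.79 and 2.79 (adjusted p = 0.0268 and 0.0142). H2-Q4 was at 18, 28.4 and 29 FPKM in TBI, 28.6, 31.9 and 43 FPKM in TBI+DEIX, 66.7 to 87 FPKM in controls and 27.5 to 30.1 FPKM in DEIX mice. Fn1 went the other way, with a difference of -2.20 (adjusted p = 0.0142).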

How the results depend on the processing

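The number of genes called between TBI+DEIX and TBI (891) ranged from 5 to 2836 when 1 library was left out, and that of the interaction (22) from 4 to 331. It was 0 in the 6 libraries alone, 1836 in 5 without TBI+DEIX replicate 1, 157 under TPM, 488 under TPM without S100a8, S100a9 and Ngp, 5532 with array weights (an estimate that stopped before full convergence), 3971 under TPM without those 3 genes and TBI+DEIX replicate 1, and 2826 under median of ratios without that library. The share of higher calls was 34.4% under TPM, 29.9% under TPM without the 3 genes, 14.5% when TBI+DEIX replicate 1 was dropped too, and 39.1% without TBI replicate 2, against 57.9%. The interaction gave 11 calls with a pseudocount of 0.1, 38 with a pseudocount of 5, 37 without the filter, 7 with a mean of at least 5 FPKM, 38 under quantile normalization, 1148 with array weights, 405 under TPM without the 3 genes and TBI+DEIX replicate 1, and 355 under median of ratios without that library. The cause of these changes was not tested. With the replicate block the count was 474, 67.3% of them higher, and 0 in the 6 libraries with the block, and 0 of the 11 red cell membrane calls were left with it, but same-numbered TBI and TBI+DEIX libraries did not deviate together (r = -0.06, 0.24 and -0.14 across genes), so the numbers do not pair the samples. Among values of single genes and list medians, 244 lost the threshold, 36 passed it, 73 moved by more than the spread and 2080 did neither. None of the 1099 values of 38 named genes under these alternatives changed sign, but of the 10 genes named for low values in TBI+DEIX replicate 1, which are not among the 38, 7 changed sign when that library was left out (Lyz2, from -0.62 to 0.59, for example). Of the list medians, 77 of 1334 changed sign, in 21 lists whose median lay between -0.32 (classical monocyte) and 0.41 (interferon response) with all libraries. Without read counts the precision at low FPKM is unknown, and 3 libraries a group limit it for all genes.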
